A study of Sus scrofa with 16 samples.

Results

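Albumin (ALB), alpha-fetoprotein (AFP), fetuin-A (AHSG), transthyretin (TTR), transferrin (TF) and the alpha, beta and gamma chains of fibrinogen (FGA, FGB and FGG) are 8 plasma proteins made by the liver. Their genes were followed here through accessible chromatin regions found by ATAC-seq, where a transposase cuts into open DNA and leaves adaptors for sequencing in it. The members were the ATAC-seq peaks that touched the promoter of one of these genes, taken as 2.2 kb upstream to 500 bp downstream of a transcription start site (TSS), or its gene body with 10 kb on either side. By this rule 262 of the 798988 peaks in 8 lists belonged to the 8 genes, out of 19560 protein-coding genes (PCGs) in the RefSeq annotation of the pig genome assembly Sscrofa11.1. The genes fell into 5 loci. ALB and AFP lie 14.5 kb apart on chromosome 8 and were treated as 1 locus, and so were FGG, FGA and FGB, which follow one another on the same chromosome. ALB lies at chr8:69643427-69663152, AFP at chr8:69677690-69698864, FGG at chr8:74553040-74562151 and FGA at chr8:74574870-74584202, all on the plus strand, and FGB at chr8:74598170-74607409 on the minus strand. AHSG (chr13:124426313-124438848) and TF (chr13:74930655-74970599) share chromosome 13, and TTR lies at chr6:115496338-115503974, also on the plus strand.

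The samples were bulk tissues of female crossbred domestic pigs of 3 ages. Newborn pigs, labelled day 0, gave liver, kidney, heart, lung, skeletal muscle and spleen. Liver was also taken from suckling pigs of 28 days and adult pigs of 180 days. Each of the 8 groups had 2 libraries from 2 pigs, which the methods of the study describe as full siblings, and the 6 newborn tissues came from the same pair. The labels give no treatment or genetic change for any group. The authors merged the 2 libraries of a group into 1 list of consensus peaks, so a list has no replicate error, and the peak lists keep only what was called in both libraries. In bulk tissue, fewer cells with an open site and a less open site in each cell cannot be told apart.

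Hepatocytes make most proteins of blood plasma. ALB keeps water in the vessels by its osmotic pressure and carries fatty acids and bilirubin. AFP, its relative from a gene duplication, is known as a major plasma protein of the fetus, whose output falls after birth. TTR carries thyroid hormone and retinol-binding protein, TF carries iron, AHSG keeps calcium phosphate from precipitating, and the 3 fibrinogen chains are joined into the precursor of the fibrin clot. In rodents and humans these genes depend on liver-enriched transcription factors such as HNF1, HNF4, FOXA, CEBP and ONECUT proteins, which bind promoters and distant enhancers. Closed promoters are usually wrapped in nucleosomes, and an ATAC-seq peak marks DNA that the transposase could reach.

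The DNA at the start of 5 of the genes is shown to set a start that was called open at every liver age (TTR) beside ones called in suckling and adult liver only (ALB, AHSG and FGB) and one called in no list (AFP). A summit before ALB is shown because its region was called in the later lists alone, and one before AFP because it is the called region nearest to the AFP start. All sequences were read from the Sscrofa11.1 assembly, 5′ to 3′ along the gene for promoters (200 bases, of which the last 28 lie from the start on) and along the plus strand for the 200 bases around the summit of a peak. Capitals mark matches to 7 short motifs named in the next paragraph.
ALB promoter (chr8:69643255-69643454, plus strand): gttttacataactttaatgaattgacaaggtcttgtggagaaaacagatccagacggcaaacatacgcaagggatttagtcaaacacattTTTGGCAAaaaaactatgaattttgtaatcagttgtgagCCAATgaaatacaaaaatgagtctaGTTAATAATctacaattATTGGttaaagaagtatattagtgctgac
AFP promoter (chr8:69677518-69677717, plus strand): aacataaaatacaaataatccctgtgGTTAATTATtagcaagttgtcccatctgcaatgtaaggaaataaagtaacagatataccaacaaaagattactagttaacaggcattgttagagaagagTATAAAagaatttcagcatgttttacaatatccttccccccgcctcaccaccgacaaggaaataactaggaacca
AHSG promoter (chr13:124426141-124426340, plus strand): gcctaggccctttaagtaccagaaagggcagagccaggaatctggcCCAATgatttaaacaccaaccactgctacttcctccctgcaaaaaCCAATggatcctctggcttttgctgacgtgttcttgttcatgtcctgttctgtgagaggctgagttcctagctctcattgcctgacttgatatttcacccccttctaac
TTR promoter (chr6:115496166-115496365, plus strand): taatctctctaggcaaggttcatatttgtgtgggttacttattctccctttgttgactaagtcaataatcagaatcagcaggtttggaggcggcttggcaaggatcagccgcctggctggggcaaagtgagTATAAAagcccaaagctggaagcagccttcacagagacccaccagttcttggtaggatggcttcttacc
FGB promoter (chr8:74607382-74607581, minus strand): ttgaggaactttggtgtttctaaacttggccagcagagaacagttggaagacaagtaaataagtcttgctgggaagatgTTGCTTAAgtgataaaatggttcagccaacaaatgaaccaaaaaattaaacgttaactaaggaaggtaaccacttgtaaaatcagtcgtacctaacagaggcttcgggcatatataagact
ALB -10.2 kb, adult liver (chr8:69633098-69633297, plus strand): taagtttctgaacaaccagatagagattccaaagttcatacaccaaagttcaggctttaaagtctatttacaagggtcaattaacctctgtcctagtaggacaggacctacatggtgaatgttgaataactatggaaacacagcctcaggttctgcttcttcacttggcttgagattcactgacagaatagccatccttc
AFP -3.4 kb, newborn liver (chr8:69674148-69674347, plus strand): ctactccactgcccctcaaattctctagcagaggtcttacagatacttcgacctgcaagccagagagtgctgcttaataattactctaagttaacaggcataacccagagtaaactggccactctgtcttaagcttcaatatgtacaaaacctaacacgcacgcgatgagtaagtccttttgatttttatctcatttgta

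The motifs were searched on both strands in the same 200-base window of 19559 promoters, with positions counted from the gene start as 1 and the base before it as -1. This start is the annotated one and was not checked against RNA, so the positions hold for the annotation only. For ALB, FGA and FGG, which have 2 annotated starts each, it is the outer one. A TATA box (TATAAA) was found at AFP, from -47 to -42, and at TTR, from -41 to -36, where 7.38% of all promoters held it. The HNF1 letters GTTAATNAT were found at ALB, from -18 to -10, and at AFP, from -146 to -138, against 0.532% of all promoters. CEBP letters (TTGCNNAA) were found at ALB, TF and all 3 fibrinogen genes, against 6.06%. The CCAAT box (CCAAT) was found at ALB, AHSG and TF, against 27.9%, and the match at TF overlaps its CEBP match. Letters for FOXA (TGTTTAC, 1.67% of promoters), HNF4 (CAAAGTCCA, 0.256%) and ONECUT (ATTGATT, 1.29%) were in none of the 8 windows, which says only that these exact letters are not there. The windows of ALB, AFP and FGB held 31.5%, 35% and 38% G and C, and those of the other 5 genes from 48% to 61.5%, beside a median of 60% over all promoters. The summits at -10.2 kb from ALB and -3.4 kb from AFP held no match to the 7 motifs.

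The lists held from 57126 peaks (skeletal muscle) to 141689 peaks (suckling liver), with 120012 in newborn liver, 109003 in adult liver and 133254 in kidney. No read counts are given, so depth is unknown from the lists, and a gene without a peak is one at which none was called, not one shown to be closed. Strength is given as −log10 p, the negative logarithm of the probability that the peak caller assigned to a peak in each library, and as its percentile within the list, since −log10 p grows with depth. The medians of replicates 1 and 2 were 24.8 and 8.66 in newborn liver, 7.78 and 10.9 in suckling liver, and 18.4 and 26.0 in adult liver. The irreproducible discovery rate (IDR) of a peak, which scores the match between its ranks in both libraries, was 0.05 or lower for 19.2%, 33.8% and 50.4% of these lists. The labels of the tissues were checked by promoters of marker genes. Of 10 hepatocyte markers, 9 were called at each liver age, with CPS1 missing each time, and 2 (heart, lung) to 6 (kidney) were called in other tissues. Heart called 4 of 4 heart markers, kidney 4 of 5 kidney markers, and lung, skeletal muscle and spleen 5 of 5 of their own. In kidney, 75.2% of all PCGs had a promoter peak. Elsewhere at most 1 of 5 kidney or lung markers was called, and at most 2 of 4 heart markers (kidney). Of 5 skeletal muscle markers, 3 were called in newborn liver and in kidney. Of 5 spleen markers, 3 were called in every other list but heart (2). Of 6 endothelial markers, 5 were called in every list but skeletal muscle (2). Of 4 stellate cell markers, 3 were called at each liver age and 4 in every other tissue. Of 3 bile duct markers, 1, 1 and 2 were called in newborn, suckling and adult liver. Kidney and lung called 3 of these, and heart, skeletal muscle and spleen 1. Of 10 erythroid markers, 8 were called in newborn liver, 4 in suckling liver and 1 (EPOR) in adult liver, beside 9 in spleen. With an IDR of 0.05 or lower the erythroid counts were 0, 1 and 0 in these liver lists and 8 in spleen. Of 6 T cell markers, the newborn liver list called 3, the suckling list 6 and the adult list 5 (0, 3 and 2 with this IDR), and of 7 macrophage markers 4, 5 and 4. Among all PCGs, from 69.8% to 75.0% had a promoter peak in a liver list.

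The first comparison asked whether the plasma protein loci were more densely covered with peaks in liver than in other tissues. In these 8 lists they were. The 5 loci held 77 peaks in newborn, 69 at the suckling age and 77 in adult liver, against 21 in kidney, 8 in spleen, 4 in lung, 3 in heart and 3 in skeletal muscle. Per 10000 peaks of a list, this came to 6.42, 4.87 and 7.06 in the 3 liver lists and to 1.58 in kidney, 0.949 in spleen, 0.525 in skeletal muscle, 0.496 in lung and 0.411 in heart. The groups did not overlap. The liver lists averaged 6.12 ± 1.13 (SD, n = 3) and the other lists 0.791 ± 0.485 (SD, n = 5), a difference of 5.33 peaks per 10000 (exact two-sided permutation test, p = 0.0357, adjusted p = 0.0357 over 6 tests). This is the smallest p that 56 splits of 8 lists allow, and any full separation of liver from the other lists gives it. The 6 tests are the loci together and each of the 5 loci, so they are not independent. All 6 newborn lists come from the same pair of pigs, which the test did not take into account. The 3 liver lists are 3 ages and not replicates of 1 condition, and 5 of the 6 newborn tissues stand on the other side, so tissue was compared across unequal ages.

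**Figure D1:**
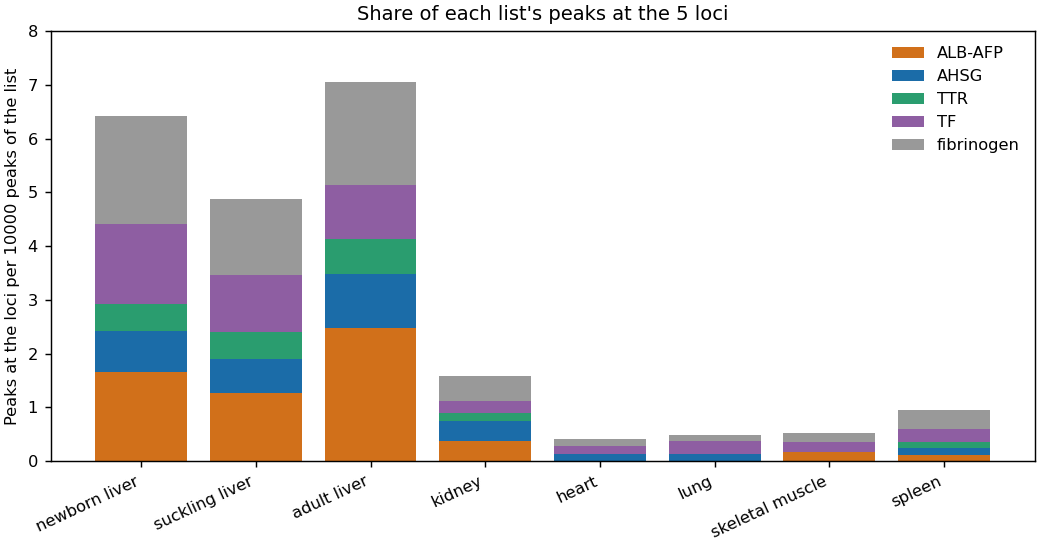
Peaks at the 5 plasma protein loci per 10000 peaks of each list (vertical axis, linear from 0), stacked by locus, for the 3 liver ages and 5 other newborn tissues. Each bar is 1 list merged from 2 libraries and has no error bar. The liver bars reach from 4.87 to 7.06, and the highest of the others, kidney, reaches 1.58.

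Every one of the 5 loci gave the same order of liver over other lists. The share of all genes with this order was not computed, so how unusual it is cannot be said. The difference in peaks per 10000 was 1.67 at ALB and AFP, 1.53 at the fibrinogen genes, 0.985 at TF, 0.647 at AHSG and 0.492 at TTR, each with the same exact p of 0.0357. The ALB and AFP locus held 20, 18 and 27 peaks in newborn, suckling and adult liver, 5 in kidney, 1 in skeletal muscle, 1 in spleen and none in heart or lung. Kidney, whose list is longer than those of newborn and adult liver, came next to liver at every locus but TF, where lung (0.248) and spleen (0.237) had slightly more peaks per 10000 than kidney (0.225). Some of the peaks in other tissues belonged to neighbours. SRPRB, a subunit of the receptor for the signal recognition particle, starts 5.43 kb past the end of TF, and PLRG1, a splicing factor, starts 7.52 kb from FGB. Their promoters were the 2 regions called in all 8 lists. Without peaks at promoters of genes outside the set, heart and skeletal muscle kept 1 peak each, lung 2, spleen 6 and kidney 19, and the liver lists 75, 67 and 73.

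When overlapping peaks of the 8 lists were joined, the loci held 100 regions, of which 96 were called in liver. Of these, 78 (81.2%) had no peak in another tissue, beside 40.7% of all 184247 liver regions of the genome. The genome regions were joined from the 3 liver lists alone and those of the loci from all 8 lists, so both sets were not made alike. By age, the shares stand beside those of the genome. Called at all 3 ages were 39 of 96 (40.6%, genome 37.4%), in newborn only 9 (9.38%, genome 11.6%), in suckling only 5 (5.21%, genome 20.6%) and in adult only 16 (16.7%, genome 11.3%). A further 10 regions (10.4%, genome 5.38%) were called in suckling and adult liver and not in newborn. Overlapping peaks of 1 locus share their libraries and are not independent of one another, so no test was made on these shares.

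At promoters, 6 or 7 of the 8 genes had a peak in each liver list, which is near the share of all PCGs. At most 2 had one in another tissue, which is under that share. A promoter peak was called for 6 of 8 genes in newborn liver (73.7% of all PCGs had one), 7 in suckling liver (75.0%) and 7 in adult liver (69.8%). In other tissues it was called for 2 of 8 in kidney (75.2% of PCGs), 1 in lung (70.6%), 1 in spleen (68.9%), and for none in heart (68.0%) or skeletal muscle (61.5%). With an IDR of 0.05 or lower, the count was 4 of 8 in newborn liver (44.1%), 3 in suckling liver (55.4%) and 7 in adult liver (56.9%). AHSG, TTR, TF and the 3 fibrinogen genes had a promoter peak at all 3 ages (67.6% of PCGs). AHSG, TTR, FGA and FGB had one at all 3 ages and in no other tissue, which held for 0.9% of PCGs. These 4 were also the ones called in newborn liver and in no other newborn tissue (1.45% of PCGs). Among the 8, ALB alone was called in suckling and adult liver and not in newborn liver (0.838% of PCGs), and AFP had no promoter peak in any of the 8 lists.

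**Figure D2:**
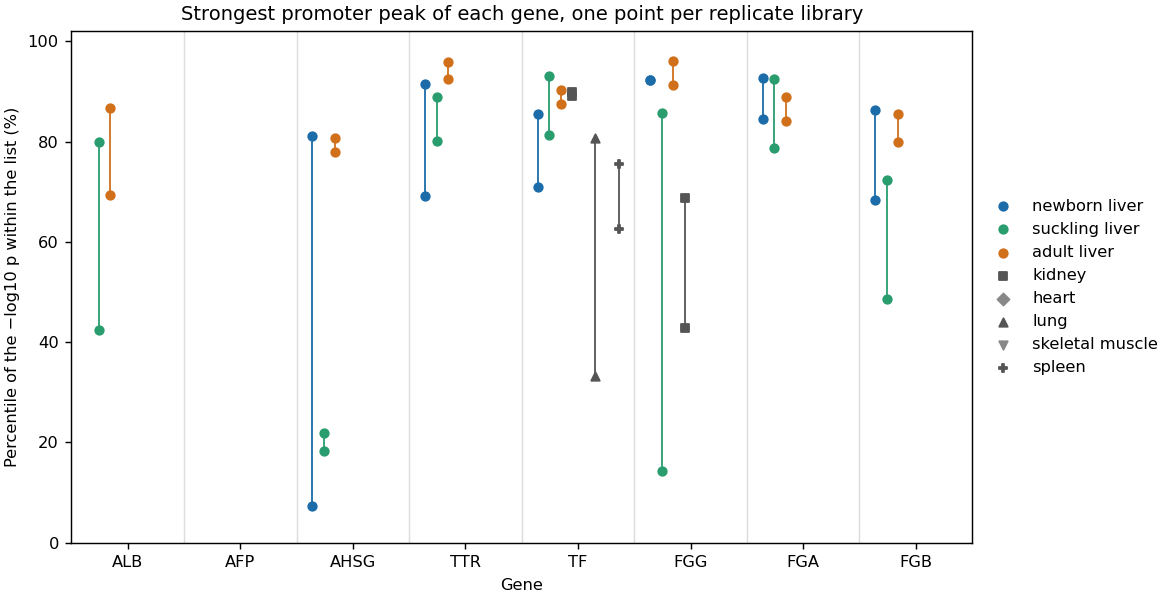
Percentile of the −log10 p within its list (vertical axis, %) of the strongest promoter peak of each gene, with 1 point for each of the 2 libraries of a list and a line joining them. Coloured circles are the 3 liver ages and grey symbols other tissues, and a list without a point had no promoter peak called. AFP has no point, ALB has none for newborn liver, and heart and skeletal muscle have none at all. For FGB, and for AHSG in newborn liver, the peak shown lies upstream of the start site.

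The start of ALB was called open in suckling and adult liver and not in newborn liver. In the newborn list the nearest peak lay 2.03 kb away, inside the gene. In suckling liver a peak covered the start with −log10 p of 18.0 and 8.87 in replicates 1 and 2 (percentiles 80.0 and 42.3, IDR 0.372). In adult liver the peak over the start reached 131 and 56.2 (percentiles 86.7 and 69.3, IDR 0.00603). Its rank by the smaller of both values was the 62.6th percentile of the suckling list and the 76.4th of the adult list. The percentiles of the 2 suckling libraries lie farther apart than the step between the ages, and 2 against 2 libraries cannot give an exact p under 0.33, so the suckling and adult values were not separated. In the other tissues no peak lay nearer than 26.1 kb to the ALB start.

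The DNA before ALB followed the same division of ages. A region with its summit at -10.2 kb from the ALB start, whose sequence is given above, was not called in newborn liver. It had −log10 p of 4.04 and 27.5 in suckling liver (14.0th percentile, IDR 0.631) and of 142 and 89.8 in adult liver (84.0th percentile, IDR 0.0016). The region at -5.87 kb was likewise absent from the newborn list. It had 4.61 and 7.14 in suckling liver (25.1st percentile, IDR 0.631) and 106 and 69.3 in adult liver (79.8th percentile, IDR 0.00245). A small region at -1.07 kb was called in adult liver alone, with 8.53 and 26.1. These 3 regions and the one over the start were all that was called before 2.23 kb into ALB, and none of them was in the list of newborn liver or of another tissue. Within the gene the order was different. An intron region at 5.23 kb from the start was called in newborn (32.7 and 16.3) and suckling liver (12.2 and 9.99) and not in adult liver. Another 5 intron regions were called at all 3 ages, and 5 in adult liver only.

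Just past the 3′ end of ALB, a region of 1757 bp with its summit 20.8 kb from the ALB start (chr8:69663190-69664946) was the strongest of the whole locus. It had −log10 p of 139 and 32.2 in newborn liver (89.4th percentile), 70.8 and 50.0 in suckling liver (96.0th) and 114 and 107 in adult liver (86.7th), and no peak in another tissue. It was also the one region of the locus with an IDR of 0.05 or lower in newborn liver (0.0129). The newborn list thus held a strong peak at the 3′ end of ALB and none at its start.

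**Figure D3:**
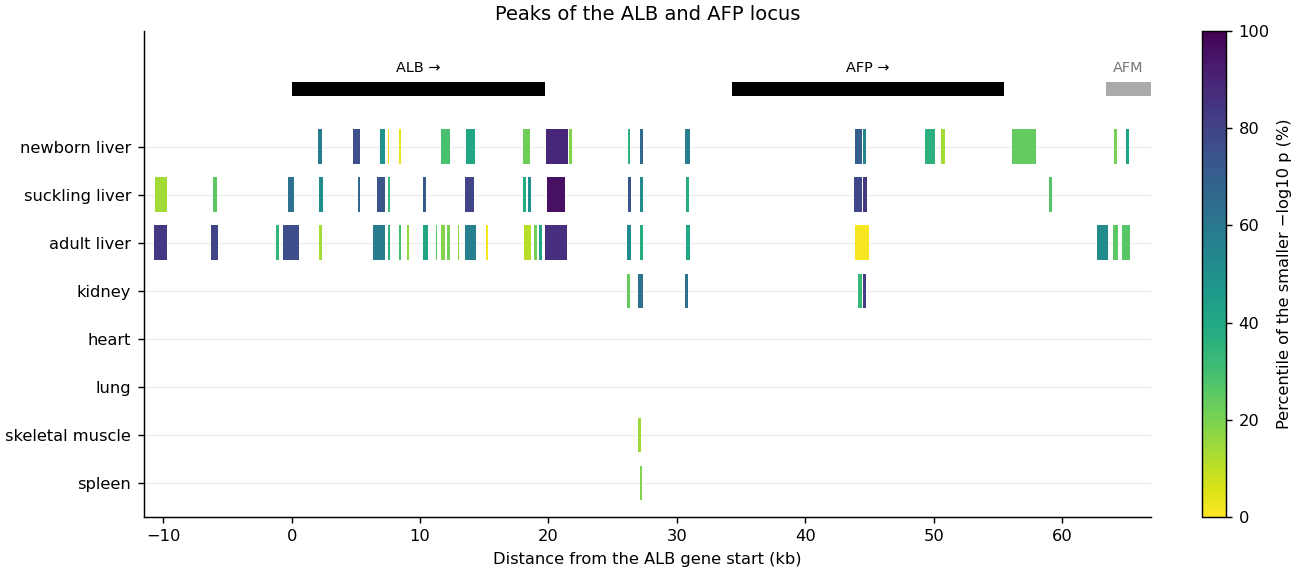
Map of the ALB and AFP locus with the distance from the ALB gene start in kb on the horizontal axis and 1 row for each of the 8 lists. Coloured blocks are peaks drawn to scale, and the colour gives the percentile of the smaller −log10 p within the list. Black bars are the genes with arrows in the direction of transcription, and the grey bar is the neighbour AFM. Blocks at and before the ALB start stand in the suckling and adult rows and not in the newborn row, whereas the row of newborn liver holds more blocks around the 3′ part of AFP.

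No peak of any list overlapped the promoter of AFP, and the nearest in newborn, suckling and adult liver lay 3.24, 3.28 and 3.25 kb from its start. This nearest region, with the summit of its strongest peak at -3.38 kb and the sequence around its newborn summit shown above, was chosen for description after its values were seen. It had −log10 p of 103 and 9.22 in newborn liver (57.9th percentile), 5.42 and 14.5 in suckling liver (37.9th), and 13.7 and 10.4 in adult liver (39.9th). In kidney it had 9.20 and 18.1 (63.5th percentile, IDR 0.049), so it was not limited to liver. The pair of regions upstream of it, at -7.96 and -7.06 kb, were called at all liver ages and in kidney, and the latter also in skeletal muscle and spleen with −log10 p from 4.58 to 9.51. An intron region at 10.4 kb from the AFP start was joined from neighbouring peaks. Over its summit the peaks had 10.7 and 8.51 in newborn liver, 20.3 and 31.8 in suckling liver, and 16.5 and 23.7 in newborn kidney. Beside the summit, the peaks had 37.8 and 13.2, 15.6 and 34.8, and 5.30 and 12.1 in the same order. In adult liver 1 peak spanned both sites. Its replicates gave 3.63 and 89.4, percentiles of 0.828 and 79.3, so that a single library set its low rank there. The 4 regions of this locus with a peak in another tissue are these 4.

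Toward the 3′ end of AFP, regions at 15.6, 16.5 and 22.6 kb from its start were called in newborn liver only. Their −log10 p were 17.5 and 5.93, 5.98 and 4.29, and 33.1 and 4.86, with an IDR from 0.27 to 0.6. A region at 24.8 kb was called in suckling liver only (7.87 and 4.77). Further on lies AFM, the gene of afamin, a vitamin E carrier of the albumin family that starts 7.96 kb past AFP. A region over its start was called in adult liver only, with 64.8 and 16.5 (52.3rd percentile).

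Cut midway between ALB and AFP, at 27.0 kb from the ALB start, the locus had 22 regions on the ALB side and 10 on the AFP side. This cut was chosen after the data were seen. On the ALB side, the newborn list called 11 regions, the suckling list 12 and the adult list 20, with 7 in adult only and 1 in newborn only. On the AFP side, the newborn list called 8, the suckling list 4 and the adult list 6, with 1 in adult only and 3 in newborn only. With an IDR of 0.05 or lower, the ALB side kept 1, 2 and 7 regions and the AFP side 0, 1 and 0, so none of the regions found in newborn liver on the AFP side was at or under this limit. The order of the ages differed between ways of counting. With all deposited peaks the locus held 20, 18 and 27 in newborn, suckling and adult liver, and with the same number of top peaks from every list it held 7, 9 and 8. Ranked by replicate 2 alone these were 5, 7 and 9, and by replicate 1 alone 7, 10 and 7. Whether the ages differ between the 2 sides was not tested, since each age is 1 list. The share of list peaks with an IDR of 0.05 or lower (19.2%, 33.8% and 50.4%) ran in the same order as the ALB calls, and the erythroid markers called (8, 4 and 1 of 10) in the opposite order, though at that IDR they came to 0, 1 and 0. The T cell markers called were 3, 6 and 5 of 6. The part of these values in the result was not tested.

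The carriers AHSG, TTR and TF differed in where their peaks lay. TTR had the region with the highest percentile of the 5 loci within the liver lists. This region, at -9.33 kb from its start, reached −log10 p of 327 and 52.4 in newborn, 39.8 and 55.4 in suckling and 255 and 262 in adult liver, at the 95.1st, 94.0th and 97.9th percentiles. In kidney a peak of 4.06 and 6.94 (11.8th percentile) overlapped it. The peak over the TTR start was called at all 3 ages, with 208 and 14.1 in newborn (72.2nd percentile), 28.5 and 29.2 in suckling (89.9th) and 234 and 179 in adult liver (94.4th), and in no other tissue. A region near the 3′ end, at 7.80 kb, was called in suckling (13.2 and 5.72) and adult liver (61.2 and 48.7) and not in newborn liver.

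TF was the gene of the set whose promoter was called in the most lists, 6 of 8. The peak over its start had −log10 p of 146 and 14.9 in newborn (73.7th percentile), 39.2 and 31.0 in suckling (91.0th) and 162 and 133 in adult liver (90.3rd). It had 27.7 and 38.8 in kidney (90.9th percentile), 18.4 and 22.5 in spleen (78.7th) and 13.04 and 13.05 in lung (81.4th), and none was called in heart or skeletal muscle. Lung replicate 2 put the same peak at the 33.2nd percentile of its own values. A region at -3.69 kb from the start was called at all 3 liver ages and in no other tissue, with 169 and 20.2, 17.3 and 17.4, and 77.4 and 93.1, at percentiles of 81.2, 81.1 and 81.6. The annotation holds a neighbouring record that is also named TF, 23.6 kb upstream, described as an inhibitor of carbonic anhydrase. It was not counted here.

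AHSG was led by a region in its intron, at 5.21 kb from the start. This region had −log10 p of 94.2 and 37.0 in newborn (91.4th percentile), 45.2 and 57.3 in suckling (95.1st) and 189 and 127 in adult liver (89.5th), with no peak in another tissue. The next strongest were joined regions at -5.95 kb and at 15.0 kb, past the 3′ end, which were also called at all 3 ages. In the former, the summit was that of a suckling peak (chr13:124420190-124420569). The newborn peak there (chr13:124418956-124420038) did not reach this summit. At the start itself no peak was called in newborn liver. The suckling peak was weak, with 4.69 and 5.56 (26.1st percentile, IDR 0.631), and the adult peak had 77.8 and 95.2 (81.7th percentile, IDR 0.0017). The promoter peak that newborn liver did have lay upstream, with its summit at -1756 bp, and its replicates stood far apart, at 114 and 4.18 (percentiles 81.2 and 7.32). An intron region at 7.36 kb, the AHSG region called in most tissues and named after its values were seen, had peaks in newborn and adult liver, kidney, heart, lung and spleen.

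**Figure D4:**
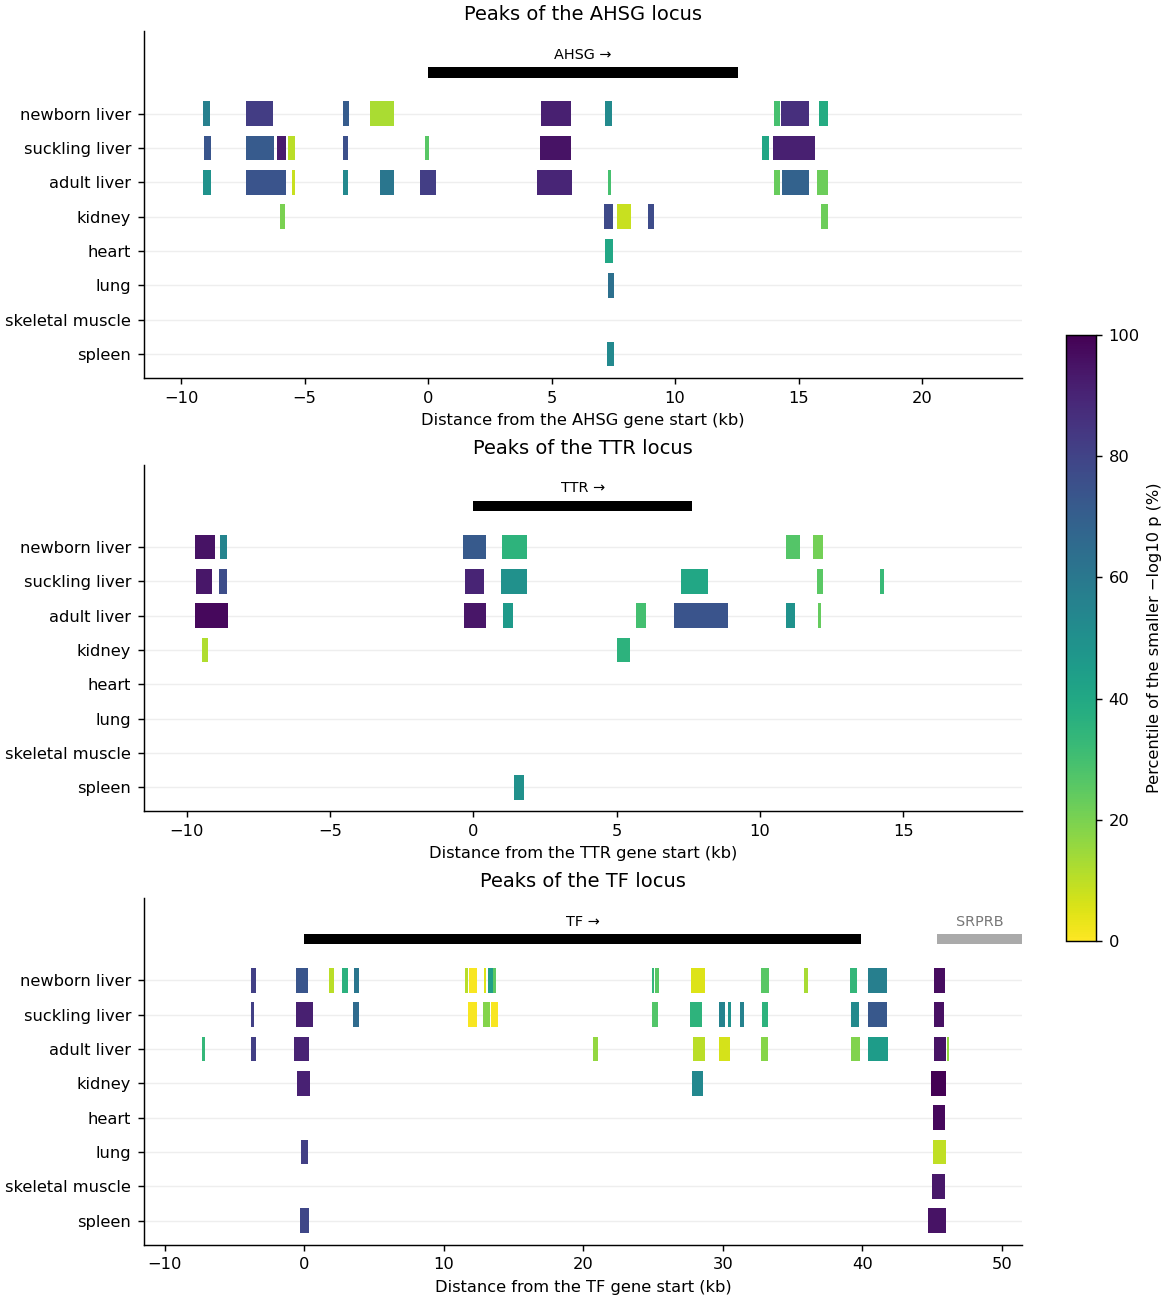
Maps of the AHSG, TTR and TF loci, each with the distance from the gene start in kb on the horizontal axis and 1 row for each of the 8 lists. Coloured blocks are peaks drawn to scale, with the percentile of the smaller −log10 p as colour, black bars are the genes, and the grey bar is the neighbour SRPRB. Blocks over the TTR start stand in the 3 liver rows alone, those over the TF start also in kidney, lung and spleen, and those at the SRPRB promoter in all 8 rows.

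At the fibrinogen genes, 13 of 26 liver regions (50%) were called at all 3 ages, the same share as at TTR (4 of 8). The share was 45.5% at AHSG, 36.8% at TF, 31.2% at ALB and AFP, and 37.4% over all liver regions of the genome. The 13 include the promoter of the neighbour PLRG1. FGG and FGA were open at their starts at every liver age. At FGG the start peak had −log10 p of 220 and 42.5 in newborn (93.0th percentile) and 236 and 166 in adult liver (93.4th). In suckling liver its replicates gave 4.55 and 38.2, at percentiles of 14.3 and 85.7, so the low rank there (22.2nd) came from 1 library. FGG also had a peak over its start in kidney, with 12.1 and 8.32 (59.4th percentile). The FGA peak had 226 and 25.8 in newborn (85.9th), 37.1 and 27.5 in suckling (89.4th) and 150 and 112 in adult liver (87.5th), and no other tissue had one.

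FGB, which is read in the opposite direction, was like ALB and AHSG in that no peak covered its start in newborn liver. In suckling liver the start peak had −log10 p of 7.98 and 12.7 (58.7th percentile, IDR 0.0562), and in adult liver 103 and 82.0 (82.5th, IDR 0.0017). Another region upstream, with its summit at -2.81 kb and its near edge inside the promoter window, was called at all 3 ages. It had 152 and 13.9 in newborn, 13.4 and 10.6 in suckling and 123 and 92.1 in adult liver, and a peak of 5.24 and 5.84 in kidney (30.4th percentile). Since the rule for promoters takes in this upstream region, FGB counted as having a promoter peak in newborn liver without a peak over its start.

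**Figure D5:**
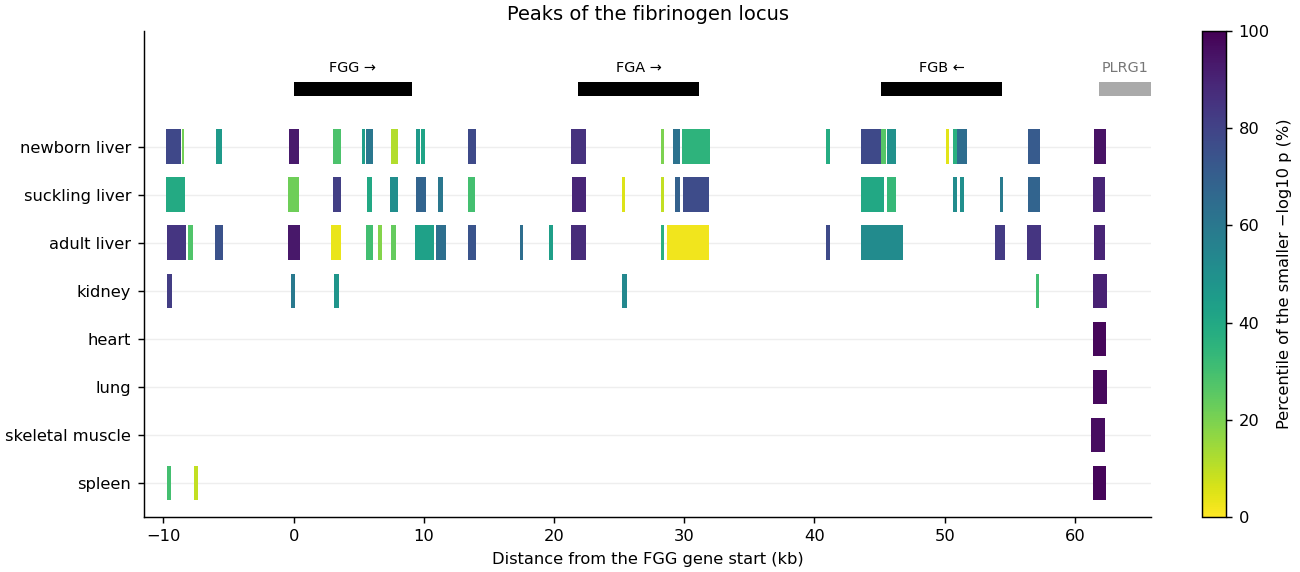
Map of the fibrinogen locus with the distance from the FGG gene start in kb on the horizontal axis and 1 row for each of the 8 lists. Coloured blocks are peaks drawn to scale, with the percentile of the smaller −log10 p as colour, black bars are the 3 genes with arrows in the direction of transcription, and the grey bar is the neighbour PLRG1. Blocks at the FGG and FGA starts stand in all 3 liver rows, the block at the FGB start (54.3 kb) is missing from the newborn row, and the PLRG1 promoter is marked in all 8 rows.

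Counted over start sites alone, a measure added after the data were seen, 4 of 8 genes had a peak in newborn liver (TTR, TF, FGA and FGG), beside 64.0% of PCGs. The count was 7 of 8 in suckling liver (62.9% of PCGs) and 7 of 8 in adult liver (61.5%), with AFP missing in both. ALB, AHSG and FGB had a peak over the start in suckling and adult liver and not in newborn liver, which 0.787% of PCGs had. Replicate 2 of newborn liver had lower −log10 p than replicate 1 at the start sites of all 4 genes that were called there, with 14.1 to 42.5 against 146 to 226. A peak enters a list only if both libraries hold it, and the weaker library's part in the 3 missing calls was not tested.

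Other plasma protein genes were taken from a list of 39, of which 36 were matched to 1 RefSeq record. They include protease inhibitors, clotting factors, complement proteins and carriers. A promoter peak was called for 34 of 36 in newborn liver, 35 at the suckling age and 36 in adults, and for 21 in kidney, 15 in lung, 10 in spleen, 8 in heart and 8 in skeletal muscle. The shares of all PCGs in the 3 liver lists were 73.7%, 75.0% and 69.8%. In the other tissues, in the order named, they were 75.2%, 70.6%, 68.9%, 68.0% and 61.5%. Over the start site the counts were 33, 33 and 36 (64.0%, 62.9% and 61.5% of PCGs). With an IDR of 0.05 or lower the promoter counts were 24, 27 and 34 (44.1%, 55.4% and 56.9%). At all 3 ages 34 had a promoter peak (67.6% of PCGs), and 10 of these had none in another tissue (0.9%). The pair without a promoter peak in newborn liver was AFM and C5, a complement protein. C5 had −log10 p of 5.22 and 7.37 in suckling (35.0th percentile) and 49.2 and 40.0 in adult liver (70.9th), and a promoter peak in lung that did not cover its start.

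GC, the vitamin D carrier of the albumin family, was called at every liver age, unlike ALB. It had −log10 p of 160 and 7.49 in newborn (49.1st percentile), 7.03 and 13.1 in suckling (52.4th) and 169 and 81.5 in adult liver (82.4th), and a peak in kidney (7.52 and 12.3). FETUB, a relative of AHSG that lies 41.6 kb past it, had a promoter peak at all ages and in no other tissue, with 185 and 30.1 in newborn (88.4th percentile), 27.8 and 44.1 in suckling (89.6th) and 183 and 180 in adult liver (94.4th). HRG and KNG1, further along the same cluster of cystatin relatives, were also called at all 3 ages, between the 74.1st and 88.8th percentiles, and in kidney at the 29.9th and 41.0th. So AHSG, called at its start only in the later lists, had neighbours of the same family with start peaks at every age.

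Over the 16 libraries, the promoters most like that of ALB in the percentile of the strongest peak (0 where none was called) were those of LOC106510305 (Pearson's r = 0.993), KCNQ3 (0.982), A1BG (0.972), KRT79 (0.967) and DNASE2B (0.963). A1BG is a plasma protein of the liver, KCNQ3 a potassium channel subunit, KRT79 a keratin and DNASE2B a nuclease. The likeness rests on zeros in 10 to 12 of the libraries and on 4 to 6 values above 0, and libraries of 1 list share their calls, so it is a description only. No such pattern could be drawn for AFP, which had no promoter peak.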

How the data were processed

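ATAC-seq libraries were grouped by their labels (16 libraries, 8 groups of 2). As the study describes it, the authors mapped reads to Sscrofa11.1 by Bowtie2, dropped duplicates and reads of the mitochondrion or of low quality by SAMtools, called peaks per library with MACS2 and merged the libraries of a group with the IDR tool at default settings. Peak calling there included a shift and an extension of reads, and no separate offset of a few bases for the transposase is described, so summits may lie some bases from the cut sites. The deposited −log10 p of each library, the smaller of both and the deposited score, a scaled IDR in which 540 stands for 0.05, were used as the authors gave them. The deposited q-value and signal value are a constant in every row and went unused. The lists hold no read counts, so depth is unknown from them and no intervals or floors were computed.

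Peaks were joined to RefSeq genes by an overlap of 1 bp, and peaks of different lists that overlapped were joined into regions, placed by the summit of their strongest peak. Promoters of all start sites of a gene counted. Percentiles rank −log10 p within a list. The 3 liver lists and 5 others were compared by an exact two-sided permutation test with Benjamini-Hochberg adjustment, and other counts are given beside the share of all PCGs or liver regions. Interval joins were tested on simulated data. Python 3.11.15, numpy 2.4.6, pandas 2.3.3, scipy 1.17.1, pysam 0.24.0 and matplotlib 3.10.9 were used. Genes and regions were named from the 8 genes, their strongest promoter peak in every list, in the ALB and AFP locus regions called at 1 or 2 ages (some given as counts) or with an IDR of 0.05 or lower in newborn liver, elsewhere the 3 strongest regions, of the wider list AFM, GC, FETUB, HRG and KNG1 and genes without a promoter peak at some liver age, and the 5 promoters most like that of ALB. The genes, lists, motifs and tests were chosen with earlier results of these data known. Alternatives were other flanks, promoter widths, IDR limits, equal list lengths and ranks by 1 library. Peaks on scaffolds outside the chromosomes touched none of the loci.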

Additional observations from a re-analysis of the deposited data

How the results depend on the processing

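Of 69 alternatives over 11 results, 49 stayed within their limits and 20 moved further. Only the density difference compares groups and could reverse, and it kept its sign. The other results are single counts or ranks, which have no direction to reverse. Their limits were wide. For the other plasma protein genes in newborn liver, 34 promoter calls against 24 with an IDR of 0.05 or lower stayed within them. The order of the ages at ALB and AFP was not among the 11 results, and it did change, as the counts below show. The difference in peaks per 10000 between liver and other lists ranged from 3.35 without a flank to 6.74 with a 25 kb flank. It was 5.35 without promoters of neighbouring genes, an alternative added after seeing the data. Each exact permutation test gave p = 0.0357. This is the smallest possible p, which any full separation of the lists gives, so it cannot rank the settings. Counts of peaks depended on how many peaks were admitted. In newborn liver the 77 peaks at the 5 loci became 47 without a flank, 14 with an IDR of 0.05 or lower, 30 with equal list lengths, and 27 to 33 when ranked by 1 library alone. At ALB and AFP the 20 newborn peaks became 12 without a flank, 1 with an IDR of 0.05 or lower, 7 with equal list lengths, and 5 (without replicate 1) to 7 (without replicate 2). The 18 suckling peaks became 11, 4, 9 and 7 to 10 under these settings in the same order, and the 27 adult peaks became 7 with the IDR limit, 8 with equal list lengths and 7 to 9 by 1 library. The adult ALB start peak stood at the 48.7th percentile among promoter peaks only, beside the 76.4th among all. Genes with a promoter peak in newborn liver numbered 6, with 4 for a promoter of 1 kb upstream to 100 bp downstream (AHSG and FGB lost) or an IDR of 0.05 or lower (AHSG and TTR lost), and 5 without replicate 1 (AHSG lost). AFP had no promoter peak at any liver age, so the alternatives for its rank gave no value. No paired analysis was possible because each list holds 1 merged set of peaks, so a density has no separate value for each library, and the settings without a replicate only rank the same merged peaks by the other. Depth limits what a missing peak means.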
